A study of Mus musculus with 6 samples.

Results

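The collagen genes were described here as the set of all gene symbols in the count files made of Col, a type number, the letter a and a chain number. This rule used no measured value and found 44 members among 26264 gene symbols. The data were bulk RNA-seq gene counts of immortalized brown preadipocytes, that is, fat cell precursors from the stromal vascular fraction of wild-type Bl6N mice that were immortalized with SV40 large T antigen. The cells were either left untreated or pretreated for 48 h with 5.5 nM FGF8, a paracrine fibroblast growth factor, and were harvested directly (D0) or on day 3 (D3) or day 7 (D7) of adipogenic differentiation, which began with 2 days of induction. The sources differ on whether D7 is counted from the start or the end of the induction, and the day is given here as in the titles. Each of the 6 conditions, untreated and FGF8 at D0, D3 and D7, was 1 library, so that comparisons on a single day had no replicates. The titles name no cell line, so whether all 6 libraries came from 1 line is not known here. All 6 libraries shared the genotype and the immortalization, and no library came from primary cells, although a growth note attached to the samples speaks of primary white preadipocytes. Gene counts per library ran from 16403254 to 38551551, and no pair of libraries held identical counts.

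Collagens are secreted proteins of 3 chains wound into a triple helix, and they form most of the fibrous part of the extracellular matrix. Fibrillar collagens (types I, III and V and their relatives) build the banded fibrils made by fibroblasts and fat cell precursors, type IV builds the sheet of the basement membrane that surrounds each adipocyte, and type VI forms beaded filaments between the cell and the fibrils. Fibril-associated collagens decorate fibrils, multiplexins (types XV and XVIII) lie next to basement membranes, and a few types carry a transmembrane segment. Because the helix needs chains in fixed combinations, such as the chains of Col1a1 and Col1a2 in type I, ratios between chain genes are given here beside their sum. These are ratios of RNA counts, and no protein or matrix was measured in these data.

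Of the 44 collagen genes, 33 reached 20 normalized counts on average across the 6 libraries, where a normalized count is a count divided by the library's size factor. The other 11 were detected at low counts or not at all. Across libraries, raw counts ran from 2 to 25 for Col2a1, the fibrillar collagen of cartilage, from 5 to 28 for Col4a3, from 3 to 12 for Col4a4, and from 0 to 40 for Col6a4. Col9a1 and Col22a1 had at most 1 count in any library, Col9a2 had 1 to 7, Col19a1 had 0 to 8 and Col25a1 had 0 to 3. Col17a1, a transmembrane collagen of epithelial cells, had 6 to 22 counts. Col13a1 had no count in any library, so no difference could be detected for it at this depth.

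Promoter sequence is shown for 4 genes on which the results turn. Col1a1 and Col3a1 are abundant fibrillar members whose differences with FGF8 ran opposite ways over time, and Col6a2 and Col6a3 encode chains of the same type VI molecule but were apart at D0. Each run is the 250 bases before the start of the canonical transcript in GENCODE M39, read from the GRCm39 genome 5′ to 3′ on the gene's strand, and none of the 4 windows holds an annotated exon base. Capitals mark 5 short motifs on either strand: the TATA box letters TATAAA, the CCAAT box, the GC box letters GGGCGG, the AP-1 letters TGANTCA and the TEAD letters GGAATG. The motif matches in these windows do not overlap each other.
Col1a1, chr11:94826800-94827049, plus strand: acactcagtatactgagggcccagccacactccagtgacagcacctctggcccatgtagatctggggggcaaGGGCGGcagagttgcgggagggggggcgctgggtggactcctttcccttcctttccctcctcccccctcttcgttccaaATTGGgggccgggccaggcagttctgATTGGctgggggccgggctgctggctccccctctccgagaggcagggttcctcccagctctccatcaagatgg
Col3a1, chr1:45350448-45350697, plus strand: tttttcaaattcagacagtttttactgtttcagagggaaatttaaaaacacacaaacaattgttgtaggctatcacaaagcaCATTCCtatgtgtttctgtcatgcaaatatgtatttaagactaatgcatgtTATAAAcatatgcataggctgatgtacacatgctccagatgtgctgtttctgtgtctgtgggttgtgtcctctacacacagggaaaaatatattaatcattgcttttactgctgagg
Col6a2, chr10:76459550-76459799, minus strand: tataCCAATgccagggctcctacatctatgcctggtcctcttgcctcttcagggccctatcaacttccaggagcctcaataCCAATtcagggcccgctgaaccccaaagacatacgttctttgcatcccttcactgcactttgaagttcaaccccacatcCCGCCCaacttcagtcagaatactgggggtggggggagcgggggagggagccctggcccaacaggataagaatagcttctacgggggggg
Col6a3, chr1:90771781-90772030, minus strand: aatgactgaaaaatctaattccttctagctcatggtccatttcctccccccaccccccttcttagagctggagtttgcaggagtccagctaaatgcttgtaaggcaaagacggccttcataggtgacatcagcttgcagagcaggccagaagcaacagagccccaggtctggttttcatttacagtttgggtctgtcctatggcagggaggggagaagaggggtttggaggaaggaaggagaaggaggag
The Col1a1 window held GGGCGG once and CCAAT on the reverse strand at 2 places, the Col3a1 window held TATAAA and a reverse GGAATG, the Col6a2 window held CCAAT at 2 places and a reverse GGGCGG, and the Col6a3 window held none of these letters. Over the windows of all 44 members, CCAAT was present in 15 (34.1%) and GGGCGG in 21 (47.7%), compared with 34.6% and 35.4% of 23897 windows of all matched genes. TATAAA was present in 7 (15.9%, all genes 11.0%) and GGAATG in 6 (13.6%, all genes 12.5%). The AP-1 letters TGANTCA were in 0 of 44 member windows and in 6.33% of all windows. Unlike the 4 windows shown, some of the 44 hold annotated exon bases of a gene on either strand. Those of Col2a1, Col4a1, Col4a3, Col4a4, Col6a1, Col6a4 and Col20a1 lie in exons throughout. These matches describe letters and not binding.

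Collagen transcripts took a smaller share of the library after FGF8 on each day. In untreated cells the 44 genes held 2.13% of gene counts at D0, 3.90% at D3 and 3.45% at D7. In FGF8 cells they held 0.813%, 1.55% and 1.46%. The share was therefore 2.62-fold, 2.52-fold and 2.35-fold lower with FGF8, and the 3 FGF8 libraries did not overlap the 3 untreated ones. Exact binomial 95% intervals, which cover counting error only, were narrow at this depth (2.12 to 2.13% and 0.809 to 0.817% at D0). In normalized counts, the summed collagen level was 2.72-fold, 2.34-fold and 2.30-fold lower, and without Col3a1 it was 3.26-fold, 2.04-fold and 1.76-fold lower.

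**Figure D1:**
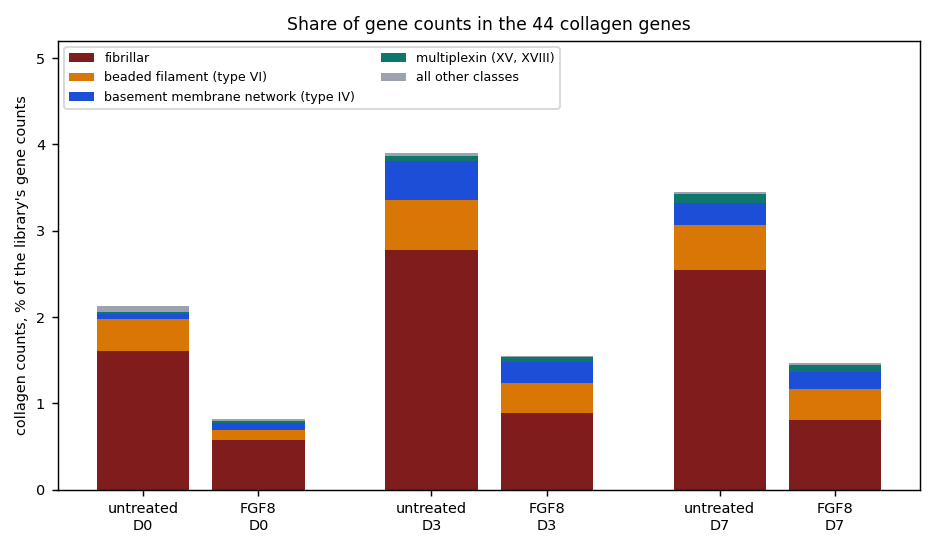
Stacked bars give the share of each library's gene counts (%, from 0) that lay in the 44 collagen genes, by collagen class, for untreated and FGF8 cells at D0, D3 and D7, with 1 library per bar. The untreated bars reach 2.13, 3.90 and 3.45%, and the FGF8 bars 0.813, 1.55 and 1.46%, with the fibrillar part the largest in every bar.

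The makeup of the collagen counts also differed. Type I and III chains (Col1a1, Col1a2 and Col3a1) made up 63.6%, 61.9% and 65.5% of all collagen counts in untreated cells at D0, D3 and D7. In FGF8 cells they made up 58.8%, 46.8% and 43.4%. Ranked by raw counts, Col3a1 was the gene at rank 3, 1 and 2 of the untreated libraries and at rank 9, 9 and 24 of the FGF8 libraries. The basement membrane class took 2.60% of collagen counts in untreated and 9.82% in FGF8 cells at D0, and 7.47% and 13.4% at D7. Multiplexins took 1.00% and 2.51% at D0, and 2.94% and 5.70% at D7. Type VI took 17.3% and 13.6% at D0, and 15.2% and 24.3% at D7. The fibrillar share was lower in FGF8 cells on all 3 days (71.4% against 75.6% at D0, 57.2% against 71.1% at D3, 55.3% against 73.6% at D7).

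For single genes on a single day, the log2 difference is FGF8 minus untreated in log2(normalized count + 1), and a gene was called at 2-fold or more where the pair's mean was at least 20 normalized counts. With 1 library per condition there is no test of these differences, and the intervals given with them are exact binomial 95% intervals of the ratio of both counts. A gene can pass this filter through its higher library alone. Calls of this kind at D0 are Col6a4 (58.8 untreated, 0 FGF8), Col6a5 (720 and 8.96), Col6a6 (144 and 16.6) and Col17a1 (13.2 and 28.2). At D3 they are Col6a5 (68.7 and 13.3), Col4a6 (30.5 and 10.5) and Col10a1 (15.3 and 107). At D7 they are Col6a5 (51.1 and 1.63), Col6a6 (162 and 13.0), Col4a6 (36.2 and 5.69), Col24a1 (73.1 and 8.13) and Col14a1 (30.5 and 13.0). All genes were filtered in the same way. At D0, 32 members passed the filter and 20 were at least 2-fold lower, or 62.5%, against 10.8% of all genes. Only Col4a2 and Col17a1, 2 of 32, were at least 2-fold higher, against 7.27% of all genes. The members' median log2 difference was -1.51, and that of all genes was 0.054.

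At D3, 14 of 31 members were at least 2-fold lower (45.2%, all genes 12.1%) and 2 were higher, Col27a1 and Col10a1 (all genes 3.80%). At D7, 13 of 32 were lower (40.6%, all genes 8.74%) and 1 was higher, Col20a1 (all genes 1.12%). The median log2 difference of the members was -0.86 at D3 and -0.71 at D7, while that of all genes was 0.081 and 0.083. The members differed in how they moved with time, since only 6 of 33, Col1a1, Col1a2, Col5a1, Col5a2, Col6a5 and Col6a6, stayed 2-fold or more below untreated cells on each of the 3 days (18.2%, all genes 3.79%). Of these, Col6a5 had under 20 normalized counts in every FGF8 library, and Col6a6 in those of D0 and D7. Altogether 21 of 33 were below 0 on all 3 days (63.6%, all genes 21.6%), and 1, Col7a1, was above 0 on all 3.

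**Figure D2:**
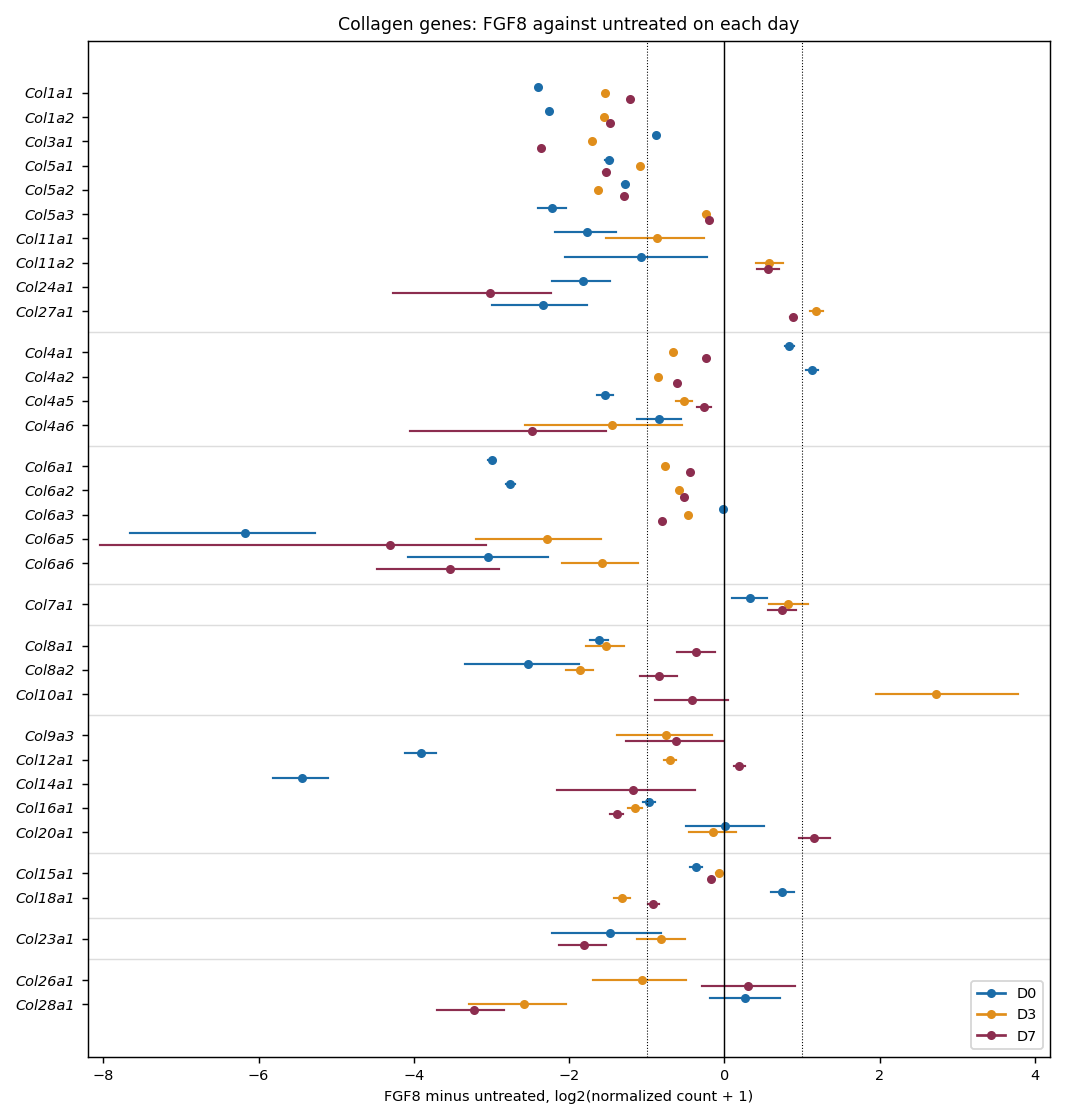
Points give the log2 difference (FGF8 minus untreated, log2 of normalized count + 1) of the 33 better counted collagen genes, for D0, D3 and D7, where the pair passed the filter. Bars are 95% counting intervals, dotted lines mark 2-fold, and grey lines divide the collagen classes. Most points lie left of 0, with Col6a5 at D0 at -6.18 the lowest and Col10a1 at D3 at 2.73 the highest.

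What FGF8 did in common at D0, D3 and D7 was examined in an edgeR quasi-likelihood fit of all 6 libraries, with day as a covariate, so that the 3 days stood in for replicates and any change of the FGF8 effect with time counted as error. Of 35 members tested, 1 was lower and 0 were higher at an adjusted p under 0.05, against 1.08% and 0.0144% of all genes tested. The gene called was Col16a1, with an edgeR log2 fold change of -1.19 ± 0.13 (SE, adjusted p = 0.0448, lower in 3 of 3 days). With Col16a1, 16 of the 35 had an unadjusted p under 0.05, against 3273 of the 13868 genes tested. The fold change was below 0 in 29 of 35, a count not given here for all genes. The number called moved with the tool and the libraries. With DESeq2 16 members were lower and 0 higher, against 8.85% and 3.42% of all genes. Without the filter on low counts edgeR called 6 lower and 0 higher, against 2.05% and 0.0655%. Without the D0 libraries edgeR called 14 members lower and 2 higher, against 11.6% and 3.96% of all genes. Without the D3 or the D7 libraries, with median-of-ratios size factors or without the day term, edgeR called 0 of all genes, so that Col16a1 was lost together with every other call. Closest to the threshold stood the type V chains, Col5a1 with an edgeR log2 fold change of -1.39 ± 0.18 (SE, adjusted p = 0.050015, edgeR, lower in 3 of 3 days) and Col5a2 with -1.43 ± 0.20 (SE, adjusted p = 0.0560, edgeR, lower in 3 of 3 days).

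Type I collagen, the main fibril of skin, bone and fat stroma, is built from the chains of Col1a1 (chr11:94827050-94843868, GRCm39, plus strand) and Col1a2 (chr6:4504814-4541555, plus strand). Col1a1 had 61456, 152232 and 163720 normalized counts in untreated cells at D0, D3 and D7, and 11674, 52308 and 70433 in FGF8 cells. Every FGF8 library except that of D7 lay below all untreated libraries. The log2 difference of Col1a1 was -2.40, -1.54 and -1.22, so FGF8 cells were 5.26-fold, 2.91-fold and 2.32-fold lower. Col1a2 had 134974, 120140 and 116509 normalized counts in untreated cells and 28238, 41147 and 41999 in FGF8 cells. No FGF8 library reached the untreated range, and the fold was 4.78, 2.92 and 2.77.

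The ratio of the type I chains moved with the day and little with FGF8. Per kilobase of transcript, the ratio of Col1a1 to Col1a2 was 0.411, 1.15 and 1.27 in untreated cells at D0, D3 and D7. In FGF8 cells it was 0.374, 1.15 and 1.52. FGF8 cells therefore had 0.908, 1.00 and 1.19 times the untreated ratio, while both treatments went from a Col1a1 share under that of Col1a2 at D0 to one over it later. In edgeR, Col1a1 rose from D0 to D7 (log2 fold change 2.01 ± 0.42 SE, adjusted p = 0.0153), whereas Col1a2 had a log2 fold change of 0.19 ± 0.35 (SE, adjusted p = 0.667).

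Col3a1 (chr1:45350698-45395840, plus strand) encodes the chain of type III collagen, which mixes with type I in soft tissue. It had 129678, 326050 and 338093 normalized counts in untreated cells at D0, D3 and D7, and 70730, 100357 and 65789 in FGF8 cells. All 3 FGF8 libraries lay below the lowest untreated one. The log2 difference widened where that of Col1a1 narrowed: it was -0.87 at D0, -1.70 at D3 and -2.36 at D7, a 1.83-fold, 3.25-fold and 5.14-fold lower level. As a result, the ratio of Col3a1 to Col1a1 per kilobase was 2.25, 2.28 and 2.20 in untreated cells, steady over differentiation, and 6.46, 2.04 and 0.996 in FGF8 cells. The edgeR log2 fold change shared by the days was -1.67 ± 0.41 (SE, adjusted p = 0.122, lower in 3 of 3 days), a fit in which the widening counted as error.

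Type V collagen sits inside type I fibrils and limits their width. Col5a1 (chr2:27776397-27929526) had 16923, 35079 and 25031 normalized counts in untreated cells and 6044, 16494 and 8686 in FGF8 cells. Its log2 difference was -1.49, -1.09 and -1.53. Col5a2, whose gene lies tail to tail with Col3a1 across 16713 bases on chromosome 1, had 41675, 42117 and 29325 normalized counts in untreated cells and 17092, 13629 and 11981 in FGF8 cells. Its log2 difference was close to even over time at -1.29, -1.63 and -1.29, unlike that of its neighbour Col3a1. For Col5a2 no FGF8 library reached the untreated range.

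Col5a3, a further chain that can take part in type V, differed from both. It had 1939, 9721 and 12720 normalized counts in untreated cells and 416, 8242 and 11138 in FGF8 cells. The log2 difference was -2.22 at D0 but only -0.24 at D3 and -0.19 at D7. The ratio of Col5a3 to Col5a1 per kilobase went from 0.157 to 0.694 in untreated cells and from 0.0940 to 1.75 in FGF8 cells between D0 and D7, so that the FGF8 ratio was 0.601 times the untreated one at D0 and 2.52 times at D7. Col5a3 rose from D0 to D7 in edgeR (log2 fold change 3.63 ± 0.61 SE, adjusted p = 0.00867), and for Col5a1 the D7 change was 0.56 ± 0.22 (SE, adjusted p = 0.0828).

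**Figure D3:**
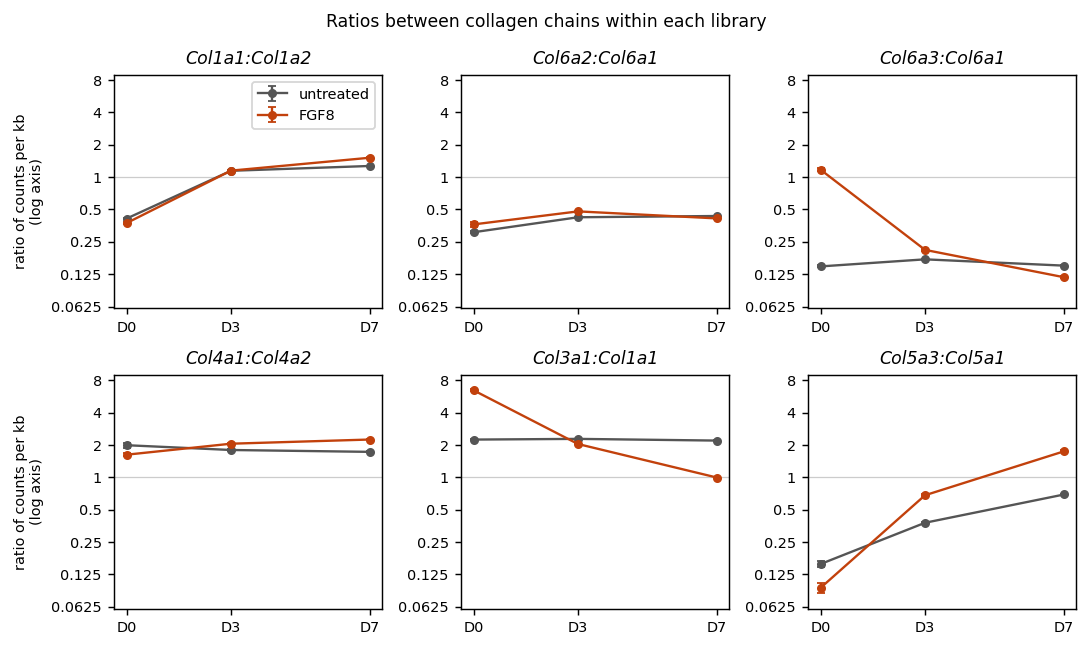
Lines give the ratio of counts per kilobase between pairs of collagen chain genes within each library (log axis) at D0, D3 and D7 for untreated and FGF8 cells, with 95% counting intervals as bars. The Col6a3 to Col6a1 ratio stands at 1.17 in FGF8 and 0.148 in untreated cells at D0 and comes together later, while the Col3a1 to Col1a1 ratio runs from 6.46 to 0.996 in FGF8 cells and stays between 2.20 and 2.28 in untreated cells.

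Col27a1 and the type XI chains are minor fibrillar collagens known best from cartilage. Col27a1 had 191, 1625 and 8908 normalized counts in untreated cells at D0, D3 and D7, and 37.1, 3699 and 16401 in FGF8 cells. It was thus 5.14-fold lower with FGF8 at D0 and 2.28-fold and 1.84-fold higher at D3 and D7. Of all members tested it had the second largest D7 fold change in edgeR, 6.76 ± 1.05 on the log2 scale (SE, adjusted p = 0.00728), after Col26a1. Col11a2 had 47.0, 454 and 516 normalized counts in untreated cells and 21.8, 680 and 761 in FGF8 cells. Its log2 difference likewise was below 0 at D0 (-1.08, counting interval -2.05 to -0.22) and above 0 at D3 and D7 (0.58 and 0.56), and it rose from D0 to D7 (edgeR log2 fold change 4.21 ± 0.50 SE, adjusted p = 0.00405).

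Col11a1, the partner chain of Col11a2 in type XI, fell over the same days. It had 326, 57.3 and 11.4 normalized counts in untreated cells and 94.7, 30.9 and 7.32 in FGF8 cells, with an edgeR D7 change of -4.30 ± 0.48 (log2, SE, adjusted p = 0.00351). Its log2 difference with FGF8 was -1.77 at D0 and -0.87 at D3. Col24a1 had 370, 6.36 and 73.1 normalized counts in untreated cells and 104, 3.51 and 8.13 in FGF8 cells. It was 3.57-fold lower at D0 and 8.99-fold lower at D7, and at D3 both libraries held 5 counts.

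Type VI is a major collagen around fat cells, and its molecule joins the chains of Col6a1 and Col6a2 with 1 more, usually that of Col6a3. Col6a1 (chr10:76543440-76562283, minus strand) had 49335, 71956 and 72676 normalized counts in untreated cells and 6180, 42420 and 53626 in FGF8 cells. The single FGF8 library of D0 stood far below the other 5 libraries. Col6a2, on the same strand 83890 bases away, had 22061, 44339 and 46013 in untreated cells and 3267, 29644 and 32229 in FGF8 cells. The log2 difference was -3.00, -0.76 and -0.44 for Col6a1 and -2.76, -0.58 and -0.51 for Col6a2, that is, 7.98-fold and 6.75-fold lower at D0.

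Col6a3 did not share this drop. It had 16182, 27465 and 24236 normalized counts in untreated cells and 16062, 19830 and 13937 in FGF8 cells. At D0 the log2 difference was -0.01 (counting interval -0.05 to 0.03), a difference whose sign changed with the scaling, and it was -0.47 at D3 and -0.80 at D7. Per kilobase, the ratio of Col6a3 to Col6a1 was 0.148 in untreated and 1.17 in FGF8 cells at D0, a 7.92-fold difference that does not depend on scaling between libraries. At D3 and D7 the FGF8 ratio was 1.22 and 0.779 times the untreated one. The ratio of Col6a2 to Col6a1 stayed between 0.307 and 0.480 in all 6 libraries. In the shared test Col6a1 (edgeR log2 fold change -1.39 ± 0.59 SE, adjusted p = 0.238, lower in 3 of 3 days) and Col6a2 (-1.28 ± 0.53 SE, adjusted p = 0.231, lower in 3 of 3 days) were not called.

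The chains that can stand in for that of Col6a3 in type VI, Col6a4, Col6a5 and Col6a6, lie side by side on 1 strand of chromosome 9 between bases 105564724 and 105973990. They were counted at far lower levels. Col6a5 had 720, 68.7 and 51.1 normalized counts in untreated cells and 8.96, 13.3 and 1.63 in FGF8 cells. It was 80.3-fold, 5.15-fold and 31.4-fold lower, on FGF8 counts of only 7, 19 and 2, and no FGF8 library reached the untreated range. Col6a6 had 144, 123 and 162 normalized counts in untreated cells and 16.6, 40.7 and 13.0 in FGF8 cells, again with no overlap, and was 8.65-fold, 3.03-fold and 12.4-fold lower. Col6a4 had 40 counts in untreated cells at D0 and 0 in FGF8 cells, which is at least 15.3-fold lower against a floor of 3 counts, and at most 11 in any later library. The shared test gave Col6a5 an edgeR log2 fold change of -4.40 ± 0.88 (SE, adjusted p = 0.0934, lower in 3 of 3 days) and Col6a6 -2.76 ± 0.49 (SE, adjusted p = 0.0784, lower in 3 of 3 days).

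Type IV networks in most tissues are made of the chains of Col4a1 and Col4a2, which lie head to head on chromosome 8 and overlap by 356 bases in the annotation. Since the strand setting of the counting was not given in the sources used here, reads in the overlap could have gone to either gene. Col4a1 had 5780, 69985 and 43119 normalized counts in untreated cells and 10334, 44137 and 36740 in FGF8 cells. Col4a2 had 2957, 39672 and 25442 in untreated cells and 6478, 21866 and 16639 in FGF8 cells. Both were higher with FGF8 at D0, with log2 differences of 0.84 and 1.13, and lower at D3 (-0.67 and -0.86) and D7 (-0.23 and -0.61). Both rose with differentiation in either treatment, and the edgeR D3 log2 fold change was 2.86 ± 0.46 for Col4a1 (SE, adjusted p = 0.00993) and 2.71 ± 0.58 for Col4a2 (SE, adjusted p = 0.0195). Their ratio per kilobase stayed between 1.63 and 2.25.

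The chains of Col4a5 and Col4a6, which also lie head to head, 1281 bases apart on the X chromosome, went the other way at D0. Col4a5 had 4176, 1745 and 1843 normalized counts in untreated cells and 1440, 1217 and 1536 in FGF8 cells, so it was 2.90-fold lower at D0, with log2 differences of -0.52 and -0.26 later. Relative to Col4a1 per kilobase it stood at 0.728 in untreated and 0.140 in FGF8 cells at D0, a 5.18-fold difference, and at D7 at 0.0431 and 0.0421. Col4a6 had 391, 30.5 and 36.2 normalized counts in untreated cells and 218, 10.5 and 5.69 in FGF8 cells. It fell from D0 to D7 (edgeR log2 fold change -4.16 ± 0.54 SE, adjusted p = 0.00481), and its log2 difference with FGF8 was -0.84, -1.45 and -2.48.

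Col15a1 and Col18a1 encode multiplexins, which tie basement membranes to the matrix beneath them. Col15a1 had 4310, 13309 and 24200 normalized counts in untreated cells and 3343, 12675 and 21576 in FGF8 cells. It differed little with FGF8, with log2 differences of -0.37, -0.07 and -0.17, and the shared edgeR change was -0.23 ± 0.16 (log2, SE, adjusted p = 0.424). It rose from D0 to D7 by an edgeR log2 fold change of 2.61 ± 0.21 (SE, adjusted p = 0.00218), the lowest adjusted p among the members. Col18a1 had 821, 2321 and 3511 normalized counts in untreated cells and 1376, 931 and 1862 in FGF8 cells. It was 1.68-fold higher with FGF8 at D0 and 2.49-fold and 1.89-fold lower at D3 and D7, which is the same order of signs as in Col4a1 and Col4a2.

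Col12a1 and Col14a1 encode collagens that bind the surface of type I fibrils, and Col16a1 a related chain found at fibril and basement membrane borders. Col12a1 had 4543, 3114 and 2237 normalized counts in untreated cells and 302, 1919 and 2555 in FGF8 cells. The FGF8 library of D0 was 15.0-fold lower than its partner, and at D7 the log2 difference was 0.19. Col14a1 had 3920, 11.5 and 30.5 normalized counts in untreated cells and 89.6, 13.3 and 13.0 in FGF8 cells. It was 43.7-fold lower with FGF8 at D0, still 6.72-fold above the FGF8 library of D3, and it fell from D0 to D3 in edgeR (log2 fold change -5.91 ± 1.57 SE, adjusted p = 0.0342).

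Col16a1 (chr4:129941154-129993076), the member called in the shared test, had 5394, 2794 and 3218 normalized counts in untreated cells and 2761, 1261 and 1231 in FGF8 cells. All 3 FGF8 libraries lay below the lowest untreated library. The log2 difference was -0.97, -1.15 and -1.39, somewhat further below 0 on each later day, with counting intervals that did not overlap. The gene also fell from D0 to D7 (edgeR log2 fold change -0.93 ± 0.16 SE, adjusted p = 0.00980). Col20a1 had 95.5, 188 and 216 normalized counts in untreated cells and 96.0, 170 and 483 in FGF8 cells. It was 2.23-fold higher with FGF8 at D7 and close to even before. Col9a3 had 10.3, 58.5 and 45.4 in untreated and 8.96, 34.4 and 29.3 in FGF8 cells, and its counting interval at D7 ran from -1.27 to -0.02.

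Type VIII collagen, a short-chain network of vessel walls, was represented by Col8a1 and Col8a2. Col8a1 had 3377, 466 and 254 normalized counts in untreated cells and 1102, 161 and 198 in FGF8 cells. Col8a2 had 153, 981 and 317 in untreated cells and 25.6, 270 and 176 in FGF8 cells. Both were lower with FGF8 on all 3 days, and their time courses ran in opposite directions: from D0 to D7, Col8a1 fell (edgeR log2 fold change -3.05 ± 0.39 SE, adjusted p = 0.00468) and Col8a2 rose (1.88 ± 0.47 SE, adjusted p = 0.0255). Col10a1, the collagen of hypertrophic cartilage, had 4.41, 15.3 and 71.7 normalized counts in untreated cells and 1.28, 107 and 53.7 in FGF8 cells, which made it 6.99-fold higher with FGF8 at D3.

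Col7a1 encodes the anchoring fibril that fixes skin epithelium. It had 400, 219 and 289 normalized counts in untreated cells and 501, 387 and 483 in FGF8 cells, with log2 differences of 0.32, 0.82 and 0.74, and a shared edgeR change of 0.60 ± 0.19 (log2, SE, adjusted p = 0.163, higher in 3 of 3 days). Col23a1, a transmembrane collagen, had 94.0, 216 and 334 normalized counts in untreated cells and 33.3, 123 and 94.3 in FGF8 cells. The difference was 2.82-fold, 1.76-fold and 3.54-fold, lower each time. Col28a1 had 109, 127 and 388 normalized counts in untreated cells and 131, 20.4 and 40.6 in FGF8 cells. It was 6.25-fold and 9.55-fold lower at D3 and D7 with no such difference at D0 (log2 0.26, counting interval -0.18 to 0.72). Col26a1 had 0 counts in either D0 library and 46 to 54 raw counts in each later one. In normalized counts it had 68.7 in untreated and 32.3 in FGF8 cells at D3, 2.13-fold lower (log2 -1.07, counting interval -1.69 to -0.50). At D7 it had 34.1 and 42.3. Col17a1 went from 9 untreated to 22 FGF8 counts at D0, a log2 difference of 1.04 whose counting interval, -0.08 to 2.39, includes 0.

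**Figure D4:**
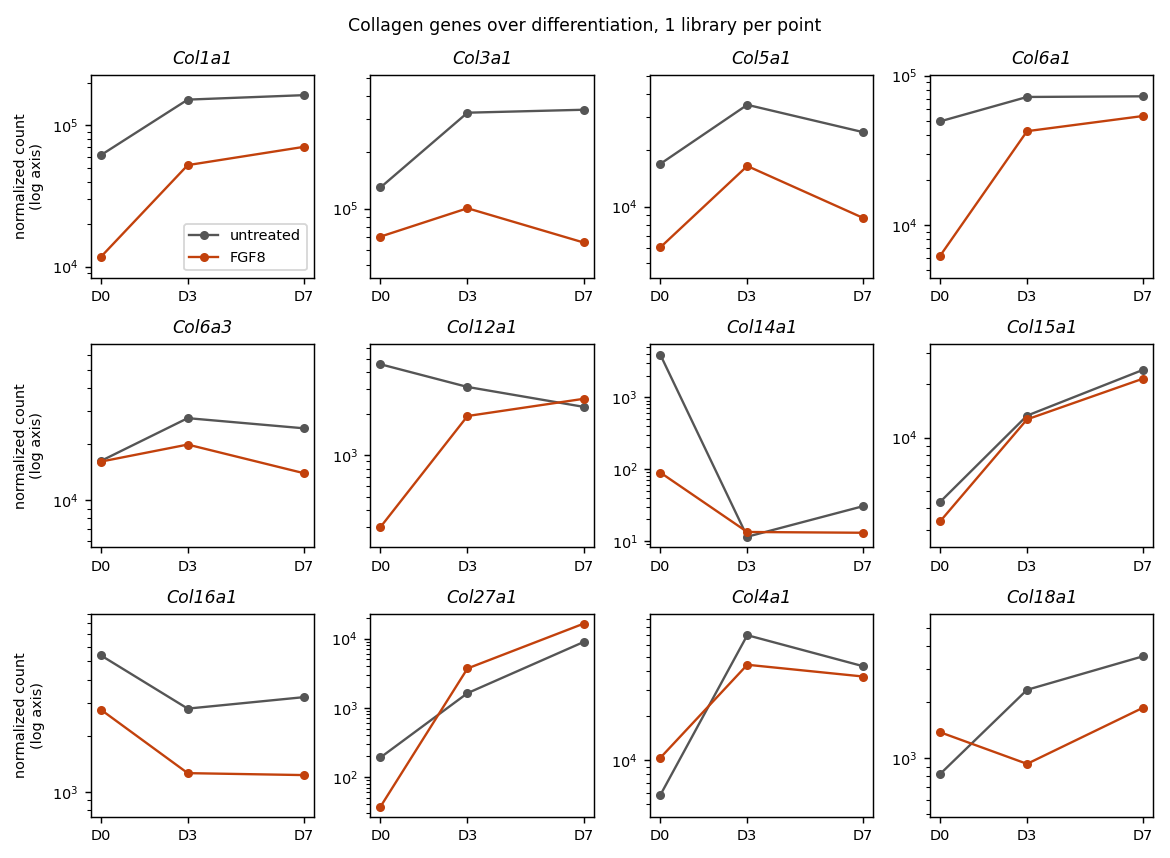
Lines give normalized counts (log axes with a range of their own in each panel) of 12 collagen genes at D0, D3 and D7 for untreated and FGF8 cells, 1 library per point. Col3a1 parts further with time, Col6a1 and Col12a1 come together after D0, Col15a1 runs alike in both treatments, and Col27a1, Col4a1 and Col18a1 cross.

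The change with day was tested in the same edgeR fit, with the untreated and FGF8 libraries of a day standing in for replicates. From D0 to D3, 13 of 35 members rose and 6 fell, against 26.4% and 19.5% of all genes tested. The 13 were Col1a1, Col5a1, Col5a3, Col11a2, Col27a1, Col4a1, Col4a2, Col8a2, Col10a1, Col9a3, Col15a1, Col23a1 and Col26a1, and the 6 were Col11a1, Col24a1, Col4a6, Col8a1, Col14a1 and Col16a1. From D0 to D7, 14 rose and 7 fell, against 29.2% and 24.6% of all genes. Of those that rose to D3, 12 had also risen at D7, and Col6a2 (log2 fold change 2.07 ± 0.66 SE, adjusted p = 0.0488, edgeR) and Col20a1 (1.83 ± 0.44 SE, adjusted p = 0.0223, edgeR) were added, while Col6a5 joined the genes that fell (-3.38 ± 0.99 SE, adjusted p = 0.0399, edgeR).

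Between D3 and D7 edgeR called 0 of 35 members in either direction, against 0.0577% of all genes higher and 0.00721% lower. At an unadjusted p under 0.05 in edgeR were 5 members, against 2969 of the 13868 genes tested. DESeq2 called 5 members: Col27a1, Col15a1 and Col24a1 higher, against 5.85% of all genes, and Col5a1 and Col11a1 lower, against 3.22%. Without the D0 libraries 7 members were called, 5 higher and 2 lower, against 11.0% and 10.2% of all genes. The shares of members called with the day were near the shares of all genes, and are not a result about collagens as a set.

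Chains are hydroxylated and folded in the endoplasmic reticulum, trimmed outside the cell and crosslinked. A list of 33 genes of collagen synthesis and processing, Sparc among them, was read beside the members. The lists here were chosen with earlier results of these data known. In the shared FGF8 test 2 of 30 tested were lower and 0 higher: P4ha3, a prolyl hydroxylase subunit (edgeR log2 fold change -2.29 ± 0.18 SE, adjusted p = 0.0445, lower in 3 of 3 days), and Adamts2, the protease that trims the amino end of procollagens I to III (-2.13 ± 0.16 SE, adjusted p = 0.0445, lower in 3 of 3 days), against 1.08% of all genes lower. Like every edgeR call of this test, both were lost without the D3 or the D7 libraries, with median-of-ratios size factors and without the day term. DESeq2 called 13 of the list lower and 0 higher, against 8.85% and 3.42% of all genes. At least 2-fold lower were 10 of 31 at D0 (all genes 10.8%), 12 of 30 at D3 (12.1%) and 10 of 29 at D7 (8.74%). None was at least 2-fold higher on any day, against 7.27%, 3.80% and 1.12% of all genes. The list's median log2 difference was -0.37, -0.81 and -0.76, and 25 of 31 genes were below 0 at D0, 30 of 30 at D3 and 28 of 29 at D7.

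Adamts2 had 6741, 11274 and 11003 normalized counts in untreated cells and 1317, 3115 and 2553 in FGF8 cells, with no overlap. Lox, which starts the crosslinking of collagen and elastin, had 100629, 24635 and 21999 in untreated cells and 4590, 8365 and 12953 in FGF8 cells, so it was 21.9-fold lower at D0 and 1.70-fold lower at D7. Bmp1, the protease that trims the carboxyl end of procollagens, had log2 differences of 0.06, -1.26 and -1.81, and Pcolce2, an enhancer of that trimming, of -0.54, -1.85 and -2.01. Loxl4, a relative of Lox, had 0.62, -1.99 and -1.94. The genes of the endoplasmic reticulum varied among themselves. P4ha3 had -2.53, -2.00 and -2.24, whereas P4ha1, another subunit of the same kind, had 0.03, -0.05 and -0.52. At D0 P3h2, a prolyl 3-hydroxylase, was 6.51-fold lower and Plod2, a lysyl hydroxylase, 2.65-fold lower. Serpinh1, the collagen chaperone, had log2 differences of -0.63, -0.89 and -0.69.

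In the shared FGF8 test edgeR called 0 of the 8 receptor genes tested, of 10 listed. At an unadjusted p under 0.05 in edgeR were 2 of the 8, against 3273 of the 13868 genes tested. DESeq2 called 2 lower and 0 higher, against 8.85% and 3.42% of all genes. At least 2-fold lower were 3 of 8 at D0 (all genes 10.8%), 4 of 7 at D3 (12.1%) and 1 of 7 at D7 (8.74%), and 2 of 8, Itga2 and Itga10, were higher at D0 (7.27%). With so few genes, 1 of 7 is near the share of all genes. Itga11, the integrin chain that binds type I collagen on fibroblasts, had 618, 38.2 and 202 normalized counts in untreated cells and 7.68, 12.6 and 157 in FGF8 cells, 80.5-fold lower at D0. Mrc2, the endocytic receptor that takes up collagen, had 8105, 7993 and 5417 in untreated cells and 6671, 2515 and 1591 in FGF8 cells. Ddr2, a receptor kinase for fibrillar collagen, had 13390, 11294 and 7792 in untreated and 18813, 5113 and 5426 in FGF8 cells, higher at D0 and lower later.

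Genes that mark cell types also differed with FGF8, and not all lists went in the direction of the collagens. The 8 preadipocyte and stromal markers, all detected, summed to between 31047 and 133133 normalized counts in untreated and between 7148 and 34240 in FGF8 cells, 3.89-fold, 3.67-fold and 4.34-fold lower at D0, D3 and D7. Not every marker was lower: at D0 Pi16 was 7.84-fold higher with FGF8 (47 untreated and 423 FGF8 counts) and Thy1 1.60-fold higher, while both were lower at D3 and D7. In the shared edgeR test Dlk1 (log2 fold change -1.23 ± 0.13 SE, adjusted p = 0.0448, lower in 3 of 3 days) and Pdgfrb (-1.44 ± 0.17 SE, adjusted p = 0.0462, lower in 3 of 3 days) were lower, and both calls were lost in the same 4 alternatives as those above. The 8 brown adipocyte markers summed to 764, 199129 and 467775 in untreated and 1748, 398039 and 544651 in FGF8 cells, and 4 of 7 were at least 2-fold higher at D3 (all genes 3.80%). At D0 the higher sum came from Ucp1, the uncoupling protein of brown fat, with 0 untreated and 1328 FGF8 normalized counts. The median log2 difference of the 5 markers that passed at D0 was -0.59, and Dio2 (5.05-fold), Ppargc1a (3.16-fold) and Pparg (1.51-fold) were lower. In bulk RNA, fewer cells of a type and less RNA per cell cannot be told apart. The part of these markers in the collagen differences was not tested.

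Of the 8 macrophage markers Adgre1 had no count and the list summed to between 139 and 313 normalized counts per library, and of the 6 skeletal muscle markers Myod1, Myf5 and Ckm had no count. The muscle list summed to between 8.81 and 1178 normalized counts, nearly all of it from Des. The 7 chondrocyte markers, read because Col27a1, Col11a2 and Col10a1 are known from cartilage, summed to between 199.985 and 883 normalized counts, and Matn1 had no count. The 5 Schwann cell markers summed to between 150 and 774. The 8 endothelial markers summed to between 205 and 1636 in untreated and between 37.4 and 75.5 in FGF8 cells, 6 of them under 20 normalized counts in all libraries, and Tek was lower in the shared edgeR test (log2 fold change -2.80 ± 0.27 SE, adjusted p = 0.0445, lower in 3 of 3 days), a call lost in the same 4 alternatives. Most of the endothelial sum at D0 was Kdr, a receptor for vascular growth factors, with 1288 normalized counts in untreated and 7.68 in FGF8 cells, while Pecam1, Cdh5 and Vwf stayed under 20. The 7 smooth muscle and pericyte markers summed to between 4996 and 8428 in untreated and between 1677 and 4648 in FGF8 cells. The sum was 2.98-fold, 2.04-fold and 1.21-fold lower by day, with Acta2 at up to 3669 and Tagln at up to 2472 normalized counts. Of the markers that passed the filter, 5 of 6 were below 0 at D0, 6 of 7 at D3 and 4 of 6 at D7. Cspg4 was higher with FGF8 on all 3 days, with log2 differences of 1.31, 0.73 and 0.22. Their part in the result was not tested.

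**Figure D5:**
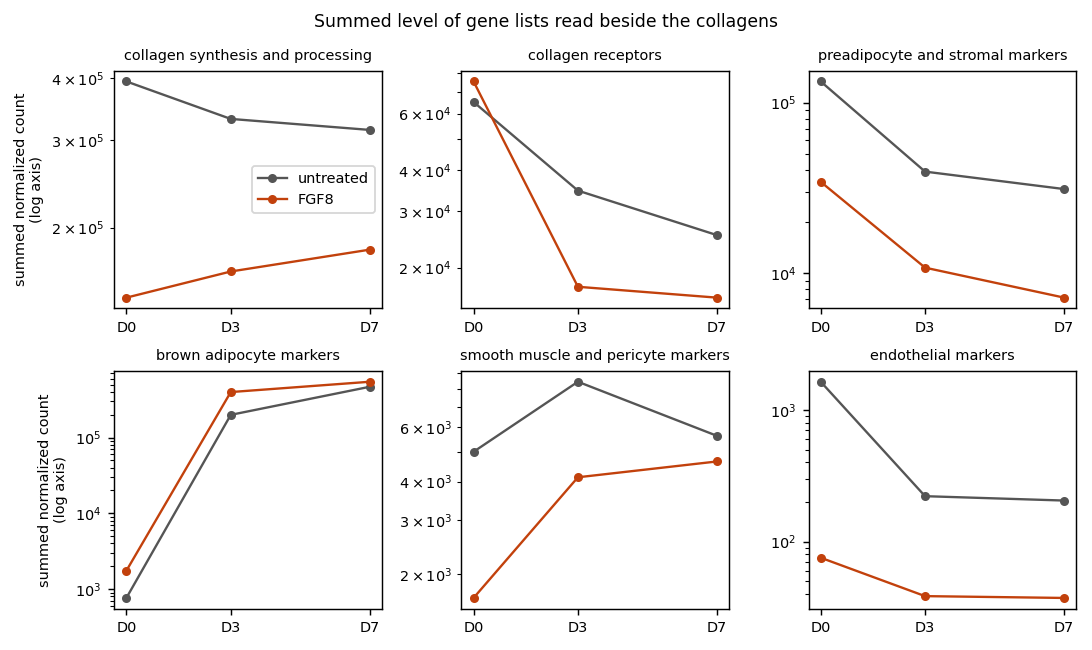
Lines give the summed normalized counts (log axes with a range of their own in each panel) of 6 gene lists at D0, D3 and D7 for untreated and FGF8 cells, 1 library per point. The sums of the collagen synthesis and processing list and of the stromal markers lie lower in FGF8 cells on all 3 days. In untreated cells at D0 the largest genes of the first list were Sparc (111357 untreated, 22604 FGF8) and Lox (100629 and 4590). The sum of the brown adipocyte markers lies higher on all 3 days, at D0 through Ucp1 with 1328 of 1748 normalized counts.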

How the data were processed

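Bulk RNA-seq was deposited as gene counts for 6 libraries, 1 per condition, with no replicate. The authors made the deposited counts from paired-end reads of stranded mRNA libraries with Trim Galore, HISAT2 on GRCm39 (mm39 in the labels) and featureCounts. Versions, annotation, strand setting and the treatment of multi-mapping reads are not given in the sources used here, so that overlapping genes may share counts. Size factors were medians of ratios over the 6 libraries. The log2 difference used a pseudocount of 1, and calls needed 2-fold and a pair mean of 20 normalized counts, with exact 95% intervals for counting error only. The model of day and treatment was fitted with edgeR 4.0.16 (TMM, filterByExpr, 13868 genes, 2 residual degrees of freedom, Benjamini-Hochberg over all of them, threshold 0.05) in R 4.3.3, with DESeq2 1.42.0 as an alternative. It was run on simulated data first. There FGF8 had the same effect on each day, so the simulation does not cover an effect that changes with time. Of 26264 symbols, 23897 (91.0%) matched GENCODE M39, which gave coordinates, canonical transcript lengths for levels per kilobase and starts for promoter windows. Members that averaged 20 or more normalized counts were named with values, the others with counts. Genes outside the set were named only from the lists, those called in the shared test first and then by the size of the log2 difference at D7, and others (Lox, Sparc, Serpinh1, P4ha1, P3h2, Plod2, Itga2, Itga10, Itga11, Pi16, Thy1, Ucp1, Dio2, Ppargc1a, Pparg, Kdr, Acta2, Tagln, Cspg4) were chosen after their values were seen. The members and lists were chosen with earlier results of these data known. No library was left out.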

Additional observations from a re-analysis of the deposited data

Results flagged for a closer look

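In 6 collagen genes the FGF8 library lay above the untreated one on some days and below it on others, with counting intervals that excluded 0 on all 3 days. Each condition and day was 1 library. The values are the span from the lowest to the highest log2 difference over the 3 days, and the difference between days was not tested. Col12a1 spanned 4.10, from a lower level at D0 and D3 to a slightly higher one at D7. Col27a1 spanned 3.52 and Col11a2 1.66, both lower at D0 and higher at D3 and D7. Col18a1 spanned 2.06, Col4a2 1.99 and Col4a1 1.503, all 3 higher at D0 and lower at D3 and D7. Other members also changed sign, but with a counting interval that included 0 on at least 1 day. Examples are Col28a1 (log2 differences 0.26, -2.59 and -3.22) and Col10a1 (2.73 at D3 and -0.41 at D7). No share of all genes that changed sign is given here.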

How the results depend on the processing

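The 2-fold counts and medians of the single-day comparisons kept their direction under every scaling, pseudocount, filter and fold tried. Of 495 log2 values of single genes under these alternatives, 401 were labelled the same, 94 moved and 0 reversed. Among those that moved was Col1a1 at D0 with total-count scaling (-2.34, against -2.40). The sign changed in 3, of Col6a3 and Col20a1 at D0 near 0. Total-count scaling moved the median of all genes at D3 by -0.11 (log2), and members are read relative to it. The count of members lower and higher was 12 and 0 at 4-fold for D0, 2 and 1 for D3, and 6 and 0 for D7. With a mean of at least 100, which fewer genes reach, it was 9 lower and 1 higher at D3 and 8 lower at D7. The calls set aside at D7 were those of Col24a1, Col4a6, Col6a5, Col6a6 and Col14a1, all at low counts. The count higher at D0 was 1 with size factors within the day, 1 with a pseudocount of 5, 1 with a mean of at least 100 and 4 at 1.5-fold, and at D7 it was 3 without a filter and 3 at 1.5-fold. No share of all genes is given for these changed settings, so the counts are not set against all genes.

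The shared FGF8 test gave 1 member, and 0 with median-of-ratios size factors, 6 without a filter, 16 with DESeq2 and 0 without the day term, and leaving out each day gave 0 to 16. With median-of-ratios size factors, without the day term and without D3 or D7, 0 of all genes were called, against 3406, 575, 1510 and 1868 at an unadjusted p under 0.05. For D7 against D3, DESeq2 called 5 and leaving out day 0 gave 7, compared with 0. Why these counts moved was not tested. Leaving out a day called 14 members for D3 against D0 (19 with all days) and 18 for D7 against D0 (21). In the same fits 3894 and 6331 of all genes were called. With the 50 most abundant genes of each library set aside, the collagen share was 0.453, 0.306 and 0.724% in untreated and 0.431, 0.580 and 0.764% in FGF8 cells at D0, D3 and D7. This set aside 5, 9 and 6 collagen genes in untreated and 2, 5 and 4 in FGF8 cells, so these shares cover different genes and say nothing of where the FGF8 difference lay. No paired analysis was possible by replicate number because each condition has 1 library, and the libraries of a day are matched through the day term alone. With 1 library per condition, differences of single days have no replicate error, and depth limits the 11 members under a mean of 20 normalized counts.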
